A study of Mus musculus with 12 samples.

Results

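The genes described here encode F-box proteins of the Fbxl, Fbxo and Fbxw classes, measured in tibialis anterior of the mouse, a shin muscle built mostly of fast fibres. Rows were taken by symbol (Fbxl, Fbxo or Fbxw followed by a number), leaving out Fbxo32, Fbxo30, Fbxo21 and Fbxo31, and a gene was kept when at least 10 counts were present in 4 or more of the 12 libraries. Of 73 rows with such a symbol among the 26264 genes in the files, 49 were kept: 17 of 18 Fbxl, 23 of 32 Fbxo and 9 of 23 Fbxw genes. All 49 were among the 13499 genes tested.

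The study compared 3 groups of 4 libraries of total RNA. The gel group was left tibialis anterior injected with 50 µl of an extracellular matrix gel at 6 mg/ml. The PBS group was right tibialis anterior injected with 50 µl of the vehicle, phosphate-buffered saline. The third group was uninjured tibialis anterior. The deposited names give gel and PBS libraries of the same number the same animal number, and the uninjured libraries other numbers. Side of the body therefore cannot be told apart from treatment between gel and PBS muscle. Injury, time of collection, strain, sex and age: none is given in the sources used here.

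An F-box protein is the exchangeable substrate receptor of an SCF ubiquitin ligase, in which Skp1 joins the F-box to the scaffold Cul1 and the RING protein Rbx1 brings in the ubiquitin-conjugating enzyme. Fbxl proteins bind substrates through leucine-rich repeats and Fbxw proteins through WD40 repeats, while Fbxo proteins carry other or no recognised domains. In skeletal muscle the best known members are ligases of atrophy and of insulin signalling, and for many others no muscle role is established.

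For some members, the sequence upstream of the gene is shown so that the promoters can be compared. These are the stretches free of annotated exons within the 250 bases before the most upstream listed start, from RefSeq on GRCm38.p6, printed 5′ to 3′ on the gene's strand. Fbxw10, Fbxl13 and Fbxw17 are shown because they were higher in gel than in PBS muscle, Fbxl4 because it was lower, and Fbxo40 because it had the highest level in uninjured muscle. The choice is not a ranking, as Fbxw9 and Fbxl22, which are not shown, changed more against PBS than Fbxw17. Capitals mark the E-box motif CANNTG, the core sequence bound by MyoD and other basic helix-loop-helix factors, and in Fbxo40 also a match to the MEF2 site.
Fbxw10, chr11:62846873-62847068, + strand: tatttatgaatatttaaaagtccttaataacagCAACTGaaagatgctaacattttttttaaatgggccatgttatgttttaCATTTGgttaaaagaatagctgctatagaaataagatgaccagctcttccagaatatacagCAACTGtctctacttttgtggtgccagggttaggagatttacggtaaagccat
Fbxl13, chr5:21645635-21645812, - strand: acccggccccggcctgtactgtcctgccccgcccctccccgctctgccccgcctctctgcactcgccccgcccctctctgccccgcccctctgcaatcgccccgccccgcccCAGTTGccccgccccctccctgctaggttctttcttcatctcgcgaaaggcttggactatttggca
Fbxw17, chr13:50417614-50417863, + strand: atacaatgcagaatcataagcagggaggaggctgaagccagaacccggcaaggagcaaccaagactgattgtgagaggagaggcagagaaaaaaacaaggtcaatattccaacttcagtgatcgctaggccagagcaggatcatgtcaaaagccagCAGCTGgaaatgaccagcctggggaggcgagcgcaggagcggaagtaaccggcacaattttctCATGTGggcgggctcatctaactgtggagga
Fbxl4, chr4:22357293-22357542, + strand: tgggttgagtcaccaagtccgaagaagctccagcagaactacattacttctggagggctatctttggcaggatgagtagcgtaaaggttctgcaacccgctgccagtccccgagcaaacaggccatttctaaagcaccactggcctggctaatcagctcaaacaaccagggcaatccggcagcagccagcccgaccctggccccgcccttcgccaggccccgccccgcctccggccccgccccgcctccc
Fbxo40, chr16:36990468-36990717, - strand: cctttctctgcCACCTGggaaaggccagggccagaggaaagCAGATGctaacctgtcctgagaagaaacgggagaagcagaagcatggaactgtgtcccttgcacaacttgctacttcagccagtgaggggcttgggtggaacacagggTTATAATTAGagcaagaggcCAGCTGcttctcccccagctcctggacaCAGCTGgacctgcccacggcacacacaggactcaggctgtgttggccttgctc
The Fbxo40 stretch held 4 CANNTG motifs and the only MEF2 site among the members matched, TTATAATTAG, whose first base lay 101 bases before the start. The Fbxw10 stretch held 3 CANNTG motifs, that of Fbxw17 held 2, that of Fbxl13 held 1 and that of Fbxl4 held 0. A promoter was matched by symbol for 39 of the 49 members. On either strand of the 250-base windows, CANNTG was found in 30 of 39 members (76.9%) and in 66.1% of all 27018 promoters in the table. CAGCTG, which is one form of CANNTG, was found in 8 members (20.5%) and in 12.7% of all promoters. CACGTG, another form of CANNTG, was found in 2 members (5.13%) and in 6.04% of all promoters. TATAAA was found in 0 of the 39 members and in 13.0% of all promoters, and the MEF2 site in 1 member (2.56%) and in 3.02% of all promoters. These are matches of letters within a window, not measured binding.

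Library totals ran from 15626086 to 22182483 counts, and the members took 0.0964% to 0.112% of them. Among counts of 1 to 20, between 74.9% and 85.9% in each library were even numbers, and the cause was not tested. Gel library 3 was unlike the rest of its group: the first principal component of all tested genes, with 50.7% of the variance, put it at 5.39 and gel libraries 1, 2 and 4 at -67.4, -84.1 and -91.4. The PBS libraries lay from 17.2 to 46.5 and the uninjured libraries from 21.5 to 37.2. The summed level of 12 muscle fibre markers, none of them at 0 in all libraries, was 160459 to 245447 CPM (counts scaled to a common library size) in gel muscle, 239570 to 273361 CPM in PBS and 267942 to 299258 CPM in uninjured muscle. The highest gel value, 245447 CPM, was that of gel library 3 and lay within the PBS range. The fall was not uniform over these markers. Between gel and PBS muscle, 4 were lower at an adjusted p under 0.05 (33.3%, against 13.2% of all genes tested). Another 1 was higher (8.33%, against 16.6%). The summed level of 15 macrophage and monocyte markers was 106 CPM in gel library 3 and 1072 to 2009 CPM in the other gel libraries, 29.5 to 63.8 CPM in PBS and 41.4 to 83.0 CPM in uninjured muscle. Of these 15 markers, 14 were higher in gel than in PBS muscle at an adjusted p under 0.05 (93.3%, against 16.6% of all genes tested). The summed level of 10 fibroblast markers was 657 CPM in gel library 3 and 2846 to 3483 CPM in the other gel libraries, against 625 to 1437 CPM in PBS and 757 to 1185 CPM in uninjured muscle. Gel library 3 stood apart less in 8 developing fibre markers, summing to 1528 CPM there and to 1730 to 2809 CPM in the other gel libraries. The sums of these 8 were 541 to 2528 CPM in PBS and 354 to 512 CPM in uninjured muscle. In whole muscle, fewer cells of a type and less RNA per cell cannot be told apart, and the part of cell makeup in the differences below was not tested.

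In uninjured muscle the 49 members spanned a 2219-fold range of mean level per kilobase of exon, with a median of 2.24 CPM per kb. Fbxo40 was highest, at 51.2 ± 2.90 CPM per kb (SD, n = 4), which was 20.02% of the summed level of the members. Fbxo40 is a muscle-enriched F-box protein that targets the insulin receptor substrate Irs1. Fbxw5 followed at 30.8 ± 0.870 CPM per kb and Fbxo6, a receptor for N-glycosylated proteins, at 30.6 ± 2.39 CPM per kb, and their ranges over 4 libraries overlapped. The lowest Fbxo40 library lay above the highest library of both, and the Fbxo40 mean was 1.66 times that of Fbxw5. Fbxo22 came next at 12.6 ± 1.59 CPM per kb, overlapping Fbxl17 at 11.9 ± 0.898 CPM per kb. Fbxl17, a receptor that dismantles wrongly paired BTB domain proteins, was the highest Fbxl gene. Of the 48 pairs of neighbours in the order of levels, 5 did not overlap and 43 did, so the order holds in steps rather than gene by gene. The low end held Fbxo27 at 0.156 ± 0.114, Fbxw10 at 0.0747 ± 0.0720 and Fbxl13 at 0.0231 ± 0.0191 CPM per kb. Fbxl13 sets the lower end of the 2219-fold range. It rested on 2, 0, 2 and 4 counts in the uninjured libraries and was kept through its gel counts.

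**Figure D1:**
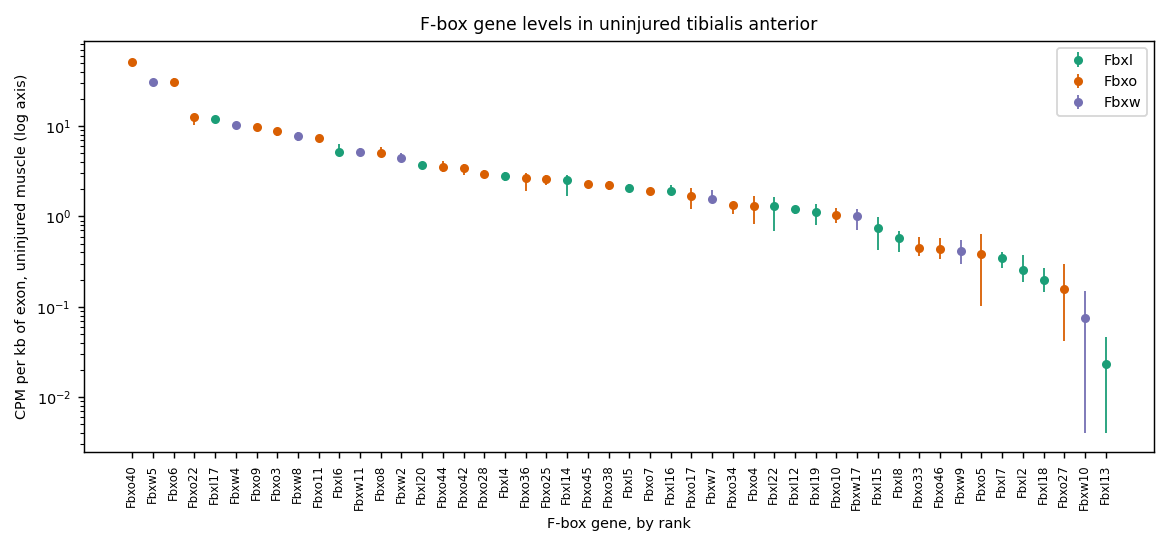
Mean level of 48 F-box genes in 4 uninjured muscles, in CPM per kb of exon on a log axis, ordered by rank and coloured by class; bars span the lowest to the highest library, and a library at 0 is drawn at the foot of its bar. Fbxo40 stands alone at 51.2 CPM per kb, and Fbxw10 and Fbxl13 are the lowest.

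Gel-injected muscle was compared with PBS-injected muscle to ask which F-box genes differ after matrix gel and after its vehicle. A gene is called when the adjusted p of edgeR's quasi-likelihood test, Benjamini-Hochberg over all genes tested, is under 0.05. The 4 libraries of each group are treated as its replicates. The spread behind the p-values was estimated over all 12 libraries together, the uninjured ones included. The animal number shared by gel and PBS libraries was not used in this fit. Higher in gel were 8 of the 49 members (16.3%), against 16.6% of all genes tested. Lower in gel were 11 members (22.4%), against 13.2% of all genes tested. Together, 19 members (38.8%) were called, against 29.8% of all genes tested, and 30 were not. The median log2 fold change of the members was -0.01, beside 0.04 over all genes. By class, 4 of 17 Fbxl genes were higher (23.5%) and 3 lower (17.6%). Of 23 Fbxo genes, 0 were higher (0%) and 5 lower (21.7%), and of 9 Fbxw genes, 4 were higher (44.4%) and 3 lower (33.3%). The shares over all genes tested were 16.6% higher and 13.2% lower. The higher Fbxl genes include Fbxl13 and the higher Fbxw genes Fbxw10, which the count rule kept through their gel counts. No test of the difference between classes was made. The summed level of the members was 858, 954, 1097 and 844 CPM in gel muscle, against 1117, 1089, 1203 and 1113 CPM in PBS and 1117, 1081, 1164 and 1110 CPM in uninjured muscle. Gel library 3 was the highest of the gel libraries and lay within the ranges of both other groups.

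**Figure D2:**
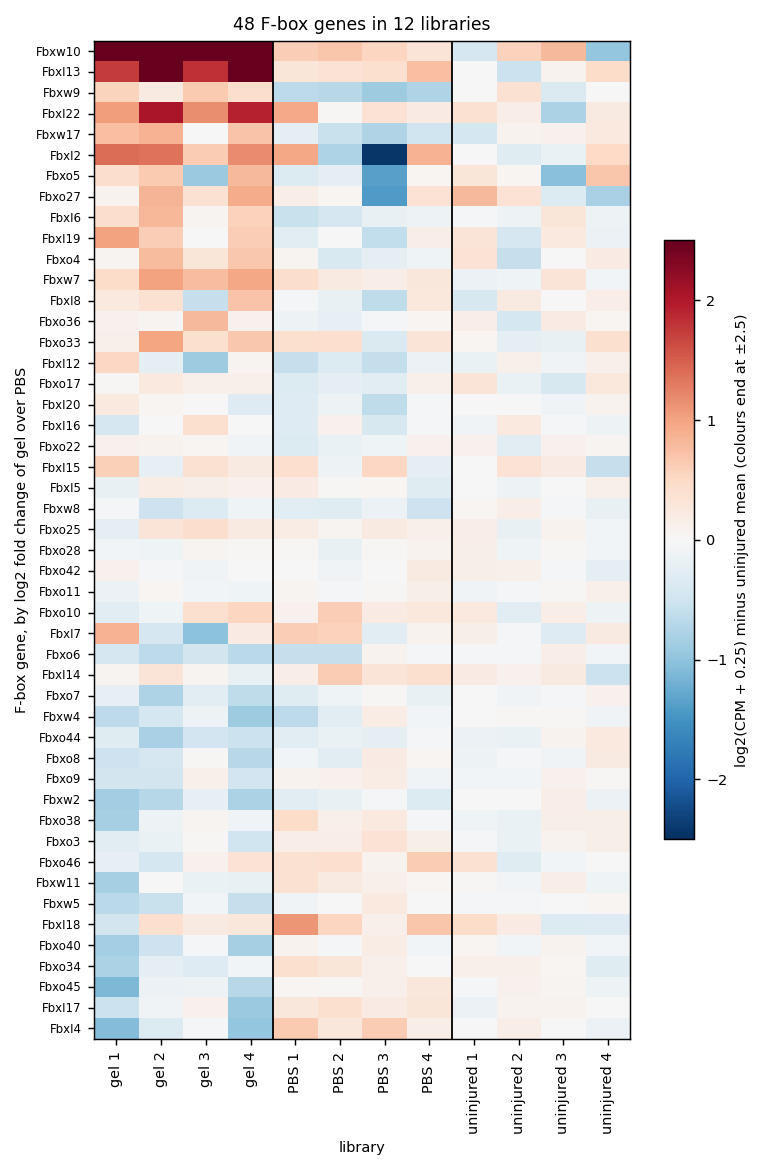
Level of 48 F-box genes (rows, ordered by log2 fold change of gel over PBS) in the 12 libraries (columns), as log2 CPM with a small constant minus the uninjured mean. The top rows are dark red in the 4 gel libraries, with Fbxw10 and Fbxl13 first, and the bottom rows are blue in gel libraries 1 and 4 and paler in gel library 3.

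Fbxw10 and Fbxl13 had the largest log2 fold changes. Both were rare in PBS and uninjured muscle, so the count rule could keep them only where gel counts were high: Fbxl13 reached 10 counts in the 4 gel libraries alone, and Fbxw10 in these and 2 PBS libraries. Their size, their calls and their place among the genes counted as higher are descriptions that the rule helped to fix. Fbxw10 had 2.85, 3.12, 2.81 and 4.41 CPM in gel muscle, against 0.494, 0.544, 0.458 and 0.360 CPM in PBS and 0.114, 0.480, 0.608 and 0 CPM in uninjured muscle. All gel libraries lay above all PBS and uninjured libraries, gel library 3 included, and the log2 fold change over PBS was 2.81 ± 0.54 (SE, adjusted p = 0.00279). The counts behind these levels were 50, 66, 46 and 121 in gel muscle and 10, 10, 8 and 6 in PBS muscle. Fbxw10 shares 237 exon bases (5.89% of its own) with Trim16 on the same strand, and Trim16 was not called (log2 fold change -0.29, adjusted p = 0.0789). The macrophage markers, summing to 106 CPM in gel library 3 and to 1072 CPM or more in each other gel library, were also higher in gel than in PBS muscle, and their part in the difference was not tested.

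Fbxl13, which targets the centrosome protein Cep192 in human cells, had 0.968, 1.99, 1.04 and 1.82 CPM in gel muscle, against 0.197, 0.218, 0.229 and 0.360 CPM in PBS and 0.114, 0, 0.135 and 0.253 CPM in uninjured muscle. Again the gel libraries lay above all others, and the log2 fold change over PBS was 2.52 ± 0.56 (adjusted p = 0.00495). Its counts were 17, 42, 17 and 50 in gel muscle and 4, 4, 4 and 6 in PBS muscle. Fbxl13 shares 161 exon bases (2.96%) with Lrrc17 on the opposite strand, and Lrrc17 was itself higher in gel muscle, with 4.10, 4.07, 1.95 and 8.99 CPM against 1.28, 2.07, 0.801 and 1.86 CPM in PBS muscle (log2 fold change 1.68, adjusted p = 0.0194). Whether counting used strand is not given, so reads of the shared bases cannot be assigned to either gene.

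Fbxw9 had 2.16, 1.66, 2.32 and 1.97 CPM in gel muscle, against 0.790, 0.761, 0.630 and 0.720 CPM in PBS and 1.36, 1.86, 1.01 and 1.39 CPM in uninjured muscle. Every gel library was above every PBS library, and the PBS libraries were also below the uninjured ones, so the uninjured muscles lay between and overlapped gel, and the log2 fold change over PBS was 1.47 ± 0.33 (adjusted p = 0.00502). Fbxw17 had 6.61, 7.19, 3.78 and 6.44 CPM in gel muscle, against 3.21, 2.501, 2.18 and 2.64 CPM in PBS and 2.73, 4.08, 4.12 and 4.56 CPM in uninjured muscle. Gel and PBS did not overlap, but gel library 3 fell among the uninjured values and PBS overlapped uninjured muscle, and the log2 fold change over PBS was 1.19 ± 0.25 (adjusted p = 0.00389).

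Fbxl22, an F-box protein of the sarcomere that targets alpha-actinin and filamin C, had 10.3, 20.8, 11.2 and 19.2 CPM in gel muscle, against 9.63, 5.003, 6.35 and 5.64 CPM in PBS and 6.42, 5.52, 2.70 and 5.76 CPM in uninjured muscle. Gel libraries 2 and 4 were well above the rest, and gel library 1 lay just above PBS library 1, and the log2 fold change over PBS was 1.21 ± 0.30 (adjusted p = 0.00858). Fbxl22 shares 317 exon bases (8.06%) with Herc1 on the opposite strand, and Herc1 went the other way (log2 fold change -0.50, adjusted p = 0.00988).

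Fbxl6 had 15.2, 20.01, 11.7 and 16.6 CPM in gel muscle, against 7.55, 8.32, 9.73 and 10.3 CPM in PBS and 10.8, 10.1, 13.9 and 10.2 CPM in uninjured muscle. The gel and PBS libraries were separate, with gel library 3 the lowest of the gel libraries, and the log2 fold change over PBS was 0.83 ± 0.18 (adjusted p = 0.00397). Fbxl19, whose CXXC zinc finger binds CpG islands, had 10.3, 7.76, 5.01 and 7.72 CPM in gel muscle, against 4.05, 5.003, 3.15 and 5.58 CPM in PBS and 6.25, 3.66, 5.88 and 4.43 CPM in uninjured muscle. Gel library 3 fell within the PBS range, and the groups overlapped, and the log2 fold change over PBS was 0.79 ± 0.25 (adjusted p = 0.0288).

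Fbxw7, the receptor that sends cyclin E, Myc, Jun, Notch1 and Mcl1 for degradation, had 15.3, 22.5, 19.05 and 21.8 CPM in gel muscle, against 15.1, 12.9, 12.4 and 13.4 CPM in PBS and 9.95, 10.2, 13.7 and 10.5 CPM in uninjured muscle. Gel libraries 2, 3 and 4 were clear of the PBS range, and gel library 1 exceeded the highest PBS library by a small margin, and the log2 fold change over PBS was 0.55 ± 0.15 (adjusted p = 0.0142). With the fold taken from the fit, the 8 genes were between 1.46-fold and 7.02-fold higher in gel than in PBS muscle. In 7 of the 8, gel library 3 lay above the PBS range, the exception being Fbxl19.

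**Figure D3:**
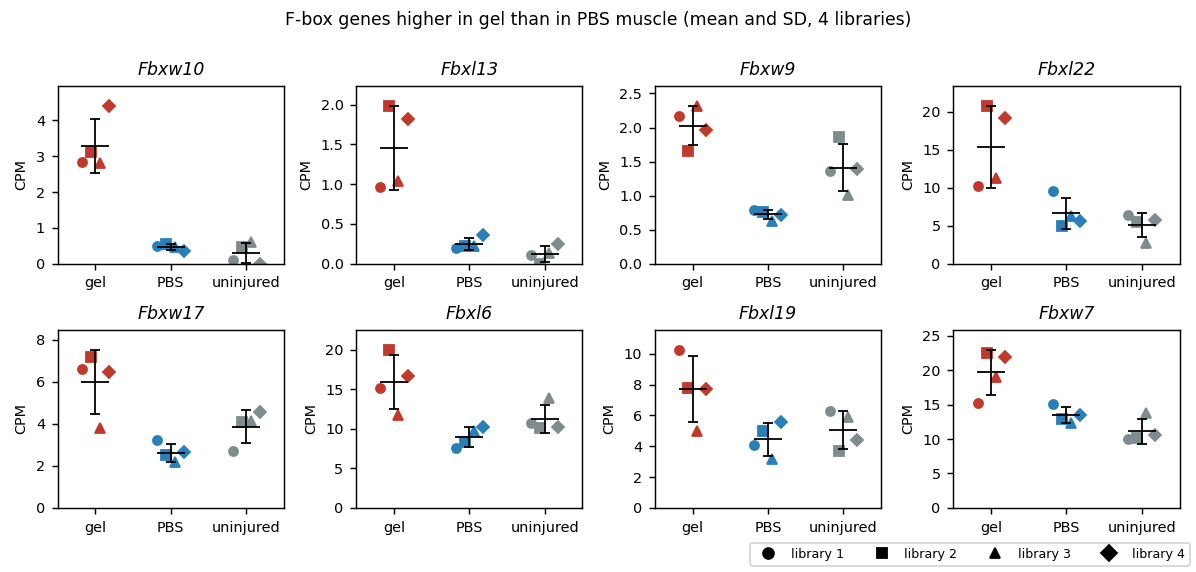
CPM of the 8 F-box genes higher in gel than in PBS muscle, 1 panel for each gene, with gel, PBS and uninjured libraries from left to right, marker shapes for library numbers, and bars for the mean and SD of 4 libraries. The gel libraries of Fbxw10 and Fbxl13 are clear of both other groups, while for Fbxw9 the PBS libraries are the lowest.

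Among the genes lower in gel, Fbxl4 changed most. Fbxl4 is a mitochondrial F-box protein whose loss in humans causes mitochondrial DNA depletion and which restrains mitophagy by limiting Bnip3 and Bnip3l. It had 4.84, 8.23, 10.3 and 5.24 CPM in gel muscle, against 16.7, 12.8, 16.4 and 11.8 CPM in PBS and 10.5, 11.8, 10.4 and 9.43 CPM in uninjured muscle. Gel and PBS libraries did not overlap, with gel library 3 nearest to PBS, and the PBS libraries were above the uninjured ones by a narrow margin, and the log2 fold change over PBS was -1.02 ± 0.22 (adjusted p = 0.00409). Transcripts of its targets were not called: Bnip3 averaged 97.0 CPM in gel and 140.2 CPM in PBS muscle (log2 fold change -0.53, adjusted p = 0.0583), and Bnip3l averaged 79.1 CPM in gel and 76.5 CPM in PBS muscle (log2 fold change 0.05, adjusted p = 0.807).

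Fbxo40, the most abundant member, had 157, 197, 275 and 159 CPM in gel muscle, against 298, 271, 321 and 270 CPM in PBS and 290, 268, 301 and 270 CPM in uninjured muscle. Gel libraries 1, 2 and 4 were far below the other groups, and gel library 3 lay within both of them, and the log2 fold change over PBS was -0.56 ± 0.16 (adjusted p = 0.0172), and without gel library 3 it was -0.78 ± 0.12 (adjusted p = 3.59e-05). Its substrate Irs1 averaged 69.2 CPM in gel and 65.6 CPM in PBS muscle at the transcript level (log2 fold change 0.08, adjusted p = 0.717). Fbxl17 had 45.3, 61.6, 71.4 and 34.5 CPM in gel muscle, against 80.3, 86.9, 75.6 and 81.5 CPM in PBS and 59.2, 69.6, 69.8 and 65.5 CPM in uninjured muscle. No gel library reached the PBS range, although gel library 3 came close and exceeded all uninjured libraries, and the log2 fold change over PBS was -0.61 ± 0.17 (adjusted p = 0.0166).

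Fbxw11, also called beta-TrCP2, targets the NF-kappaB inhibitor Nfkbia and beta-catenin (Ctnnb1). It had 12.4, 22.3, 19.9 and 19.4 CPM in gel muscle, against 29.2, 25.9, 24.2 and 23.2 CPM in PBS and 22.7, 21.1, 24.9 and 20.5 CPM in uninjured muscle. Gel library 1 was the lowest by a wide margin, and no gel library reached the PBS range, and the log2 fold change over PBS was -0.47 ± 0.16 (adjusted p = 0.0348). Its paralog Btrc, beta-TrCP1, averaged 41.0 CPM in gel and 34.9 CPM in PBS and was not called (0.23, adjusted p = 0.0785). Of the substrates of both, Nfkbia was higher in gel than in PBS muscle (0.47, adjusted p = 0.00867) and Ctnnb1 lower (-0.63, adjusted p = 0.00279), both at the transcript level.

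Fbxo45, which works with the RING protein Mycbp2 in neurons rather than with Cul1, had 4.21, 8.47, 8.67 and 5.75 CPM in gel muscle, against 9.82, 9.68, 10.3 and 11.5 CPM in PBS and 9.21, 10.2, 9.87 and 8.61 CPM in uninjured muscle. Gel libraries 1 and 4 were low and gel libraries 2 and 3 lay nearer to PBS, without overlap, and the log2 fold change over PBS was -0.61 ± 0.20 (adjusted p = 0.0324). Fbxo34 had 3.19, 4.78, 4.52 and 5.46 CPM in gel muscle, against 7.60, 7.07, 6.30 and 5.76 CPM in PBS and 6.25, 6.24, 5.95 and 4.56 CPM in uninjured muscle. The gel libraries stayed below PBS but overlapped uninjured muscle, and the log2 fold change over PBS was -0.57 ± 0.20 (adjusted p = 0.0439).

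Fbxo3, which in human cells targets its fellow F-box protein FBXL2, had 52.9, 56.3, 64.6 and 45.0 CPM in gel muscle, against 70.9, 71.3, 81.5 and 70.0 CPM in PBS and 61.5, 56.1, 67.0 and 69.7 CPM in uninjured muscle. All gel libraries were below all PBS libraries, and PBS libraries were above uninjured ones, and the log2 fold change over PBS was -0.42 ± 0.12 (adjusted p = 0.0182). Fbxl2 itself was erratic, with 58, 68, 30 and 77 counts in gel muscle, against 48, 10, 0 and 37 counts in PBS muscle and 19, 14, 14 and 26 counts in uninjured muscle. PBS library 3 had none, the groups overlapped, and Fbxl2 was not called (1.11 ± 0.67, adjusted p = 0.229).

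Fbxw5 had 58.7, 63.7, 89.8 and 63.1 CPM in gel muscle, against 88.0, 93.0, 111 and 92.7 CPM in PBS and 91.2, 92.6, 94.8 and 97.3 CPM in uninjured muscle. Gel library 3 lay within the PBS range and the other gel libraries far below it, and the log2 fold change over PBS was -0.48 ± 0.13 (adjusted p = 0.0147). Fbxw2 had 23.3, 25.9, 36.9 and 24.5 CPM in gel muscle, against 35.0, 37.1, 40.9 and 33.3 CPM in PBS and 42.0, 42.5, 47.5 and 38.4 CPM in uninjured muscle. Here too gel library 3 alone reached the PBS range, and no gel library reached the uninjured range, and the log2 fold change over PBS was -0.41 ± 0.14 (adjusted p = 0.0419). Fbxo9, which in human cells targets the mTOR regulators TELO2 and TTI1, had 21.9, 21.8, 32.8 and 21.5 CPM in gel muscle, against 32.1, 32.7, 34.5 and 28.3 CPM in PBS and 28.6, 28.9, 32.7 and 30.7 CPM in uninjured muscle. Gel libraries 1, 2 and 4 agreed closely and were below all others, and gel library 3 was not, and the log2 fold change over PBS was -0.38 ± 0.14 (adjusted p = 0.0479). Over the 11 genes, gel library 3 was below the PBS range in 7 and within it in 4, which were Fbxo40, Fbxw5, Fbxw2 and Fbxo9.

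**Figure D4:**
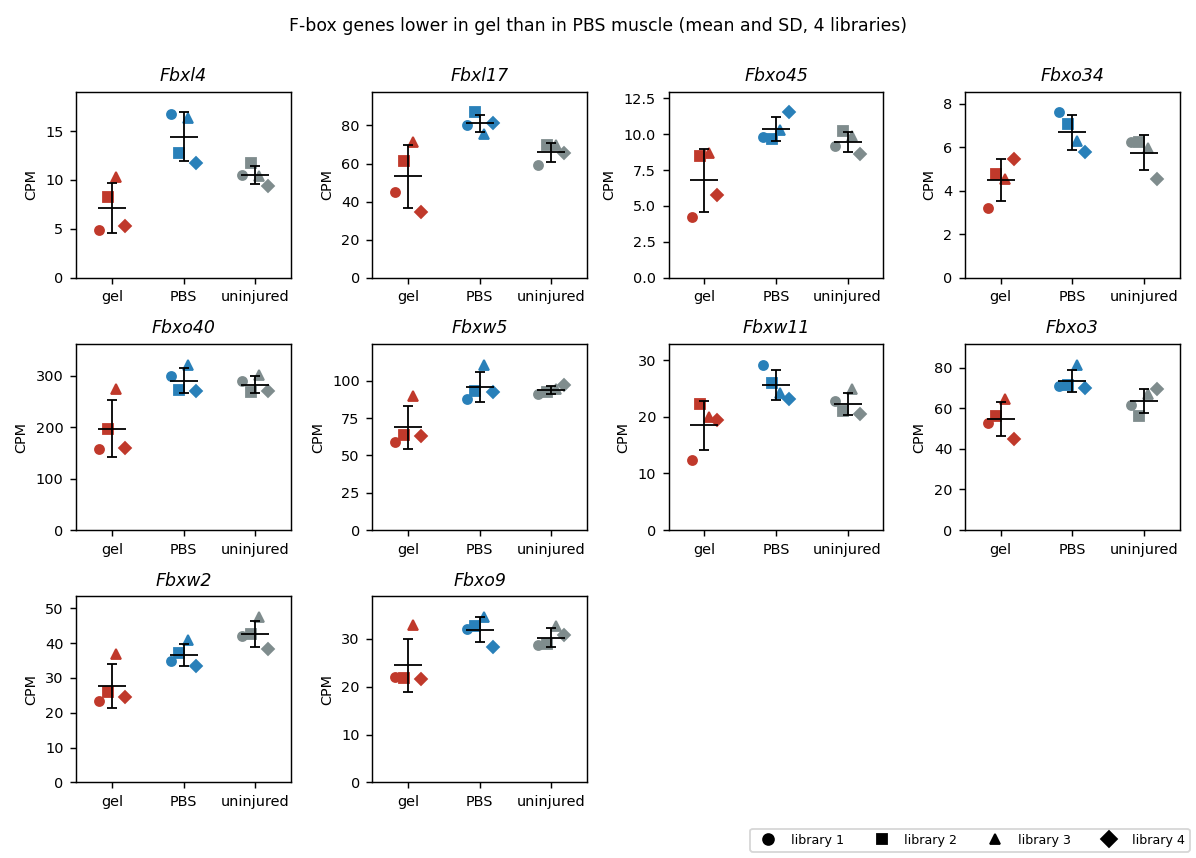
CPM of 10 F-box genes lower in gel than in PBS muscle, 1 panel for each gene, with gel, PBS and uninjured libraries from left to right, marker shapes for library numbers, and bars for the mean and SD of 4 libraries. Gel library 3 (triangle) is the highest gel library in 8 of the 10 panels, and the 4 gel libraries of Fbxl4 are all below the PBS libraries.

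Of the 49 members, 16 (32.7%) had gel libraries that did not overlap the PBS libraries, against 20.1% of all genes tested. Fbxw10 and Fbxl13, kept through their gel counts, were among these 16. Of the 19 called genes, 14 were among the 16, but calls and overlap come from the same values. The matching share of all called genes was not computed. The calls of Fbxw10, Fbxl13, Fbxw9, Fbxl22, Fbxw17 and Fbxl6 held under all 20 alternative settings that tested them, apart from Fbxl13 with halved counts, where it failed the filter on low counts. Fbxl4 was the only lower gene whose call held under all of them. All settings started from the 49 members, which were chosen once on the full counts. For Fbxw10 and Fbxl13, kept through their gel counts, a call that held is therefore a description and not support. The call of Fbxw7 was lost without gel library 2 (adjusted p = 0.0589) or 4 (0.0611). That of Fbxl19 was lost without gel library 1, 2 or 4 and without PBS library 1 or 3 (0.0617 to 0.0896). Among the lower genes, Fbxw5 was lost without PBS library 3 (0.0501), and Fbxo40 (0.0510 and 0.0573) and Fbxo3 (0.0545 and 0.0603) without PBS library 3 or gel library 4. Fbxo45 was lost without gel library 1 or 4 and without PBS library 2, 3 or 4 (0.0512 to 0.0922), and Fbxw11 without gel library 1 or 4 and PBS library 1, 2 or 3 (0.0507 to 0.0912). Fbxo34 was lost without gel library 1 or 2, PBS library 1, 2 or 3, or uninjured library 1, 2 or 3 (0.0511 to 0.107). Fbxw2 was lost without gel library 1, 2 or 4, PBS library 1, 2 or 3, or uninjured library 1 or 2 (0.0523 to 0.116). Fbxo9 was lost without any library but gel library 3 and PBS library 4 (0.0575 to 0.131). The number of lower genes was 6, 7, 14 and 4 without gel libraries 1 to 4 and 6, 6, 2 and 10 without PBS libraries 1 to 4. Without gel libraries 1 to 4 these were 12.2%, 14.3%, 28.6% and 8.16% of members, against 11.4%, 9.43%, 19.99% and 8.24% of all genes tested. Without PBS libraries 1 to 4 they were 12.2%, 12.2%, 4.08% and 20.4%, against 10.7%, 9.20%, 9.38% and 12.5%. Leaving out 1 uninjured library gave 16.3% to 20.4%, against 11.7% to 12.1%. The higher share of lower calls among members than among all genes was thus not present in each fit. It was absent without gel library 4 or PBS library 3 and present when any other 1 library was left out. With the animal number as a block in a fit of gel and PBS alone, 8 members were higher (16.3%, against 12.4% of all genes tested) and 7 lower (14.3%, against 10.03%), and Fbxo34 (adjusted p = 0.114), Fbxw11 (0.0841), Fbxo9 (0.0663) and Fbxo45 (0.0599) were lost. The same fit without the block called 7 higher (14.3%, against 11.4% of all genes tested), losing Fbxl19 (0.0540), and 1 lower (2.04%, against 7.90%), Fbxl4, the other 10 having adjusted p-values of 0.0521 to 0.107.

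Among the 30 members not called between gel and PBS muscle, log2 fold changes ran from -0.54 (Fbxl18) to 1.11 (Fbxl2), and 25 were within 0.5 of 0. Fbxo11, which targets Bcl6, averaged 31.1 ± 1.91 CPM in gel muscle and 33.8 ± 1.78 CPM in PBS muscle (-0.12 ± 0.10). Fbxl5, the iron-sensing receptor for the iron regulatory protein Ireb2, averaged 21.3 ± 2.35 CPM in gel muscle and 20.3 ± 2.89 CPM in PBS muscle (0.07 ± 0.13). Fbxl20, a synaptic receptor that targets Rim1 in mouse brain, averaged 45.1 ± 7.09 CPM in gel muscle and 37.2 ± 6.36 CPM in PBS muscle (0.28 ± 0.14, adjusted p = 0.146). Fbxo25, the closest relative of the atrophy ligase Fbxo32, averaged 8.84 ± 1.67 CPM in gel muscle and 8.49 ± 0.451 CPM in PBS muscle (0.06 ± 0.17). Fbxo5, an inhibitor of the anaphase-promoting complex in dividing cells, had 1.03, 1.23, 0.244 and 1.38 CPM in gel muscle, against 0.494, 0.544, 0.114 and 0.720 CPM in PBS and 0.910, 0.720, 0.203 and 1.27 CPM in uninjured muscle. The third library was the lowest in each group, and Fbxo5 was not called (1.06 ± 0.63, adjusted p = 0.212). The summed level of 10 proliferation markers was 12.4 CPM in gel library 3 and 46.6 to 74.2 CPM in the other gel libraries, against 5.50 to 12.4 CPM in PBS muscle.

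Gel-injected and uninjured muscle were compared to ask how far gel muscle stood from intact muscle. These libraries come from different animals, and the gel libraries are the same as above, so the calls are not independent of those against PBS. Higher in gel were 5 members (10.2%), against 14.5% of all genes tested, and lower were 7 (14.3%), against 11.1%. Together these are 24.5% of the members, against 25.6% of all genes tested. The median log2 fold change of the members was 0.02, beside 0.03 over all genes. Fbxw10 (3.45 ± 0.57, adjusted p = 0.000875) and Fbxl13 (3.49 ± 0.63, adjusted p = 0.00134) again changed most, by up to 11.2-fold, and rested on 19 and 8 counts over the whole uninjured group. Fbxl22 (1.59 ± 0.30, adjusted p = 0.00216) and Fbxw7 (0.83 ± 0.15, adjusted p = 0.00160) were also higher, without overlap. Fbxl6 was higher by 0.50 ± 0.17 (adjusted p = 0.0455) with overlapping libraries.

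Of the 7 genes lower than in uninjured muscle, Fbxw2 changed most (-0.63 ± 0.14, adjusted p = 0.00551). Fbxo6 and Fbxo44, neighbours in a family that also holds Fbxo2, Fbxo17 and Fbxo27 and whose best known members bind sugar chains of glycoproteins, were called here and not against PBS. Fbxo6 had 50.3, 43.0, 49.1 and 42.4 CPM in gel muscle, against 65.3, 64.9, 75.5 and 64.7 CPM in uninjured muscle, with 45.1, 45.5, 71.3 and 66.2 CPM in PBS muscle. Gel was below all uninjured libraries, and the PBS libraries split, with 1 and 2 at the gel level and 3 and 4 at the uninjured level, and the log2 fold change of gel over uninjured was -0.55 ± 0.15 (adjusted p = 0.0143). Fbxo44 had 8.60, 5.96, 7.57 and 7.17 CPM in gel muscle, against 9.49, 9.42, 11.2 and 12.5 CPM in uninjured muscle (-0.54 ± 0.16, adjusted p = 0.0208). The groups were separate. Fbxo17 averaged 4.53 ± 0.291 CPM in gel and 4.19 ± 1.03 CPM in uninjured muscle and Fbxo27 averaged 0.758 ± 0.269 CPM in gel and 0.477 ± 0.350 CPM in uninjured muscle, neither called. Fbxo2 was not a member, with 2, 2, 10 and 4 counts in gel muscle and 2, 4, 4 and 2 counts in uninjured muscle.

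Fbxo7, mutated in a recessive human parkinsonism and a partner of the proteasome regulator PI31, had 10.1, 6.81, 9.77 and 7.54 CPM in gel muscle, against 11.8, 11.1, 11.6 and 12.7 CPM in uninjured muscle. The groups did not overlap, and gel libraries 2 and 4 were the lowest, and the log2 fold change was -0.46 ± 0.16 (adjusted p = 0.0388). Fbxw4 had 20.6, 24.03, 29.7 and 17.5 CPM in gel muscle, against 32.8, 33.3, 33.4 and 30.7 CPM in uninjured muscle. Gel library 3 came closest to the uninjured range without reaching it, and the log2 fold change was -0.51 ± 0.17 (adjusted p = 0.0438). Fbxo40 (-0.52 ± 0.16, adjusted p = 0.0259) and Fbxw5 (-0.45 ± 0.13, adjusted p = 0.0225) completed the list.

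Fbxw10, Fbxl13, Fbxl22, Fbxl6 and Fbxw7 were thus higher in gel than in either other group, and Fbxo40, Fbxw2 and Fbxw5 lower than in either. Fbxl19, Fbxw17 and Fbxw9 were called higher against PBS and not against uninjured muscle, and 26 members were called in neither comparison. Both comparisons use the same gel libraries, and the share of all genes called in both or in neither was not computed. Gel and uninjured libraries did not overlap in 11 members (22.4%), Fbxw10 and Fbxl13 among them, against 23% of all genes tested. Fbxl13, Fbxl22, Fbxw10 and Fbxw7 among the higher genes and Fbxw2 and Fbxo6 among the lower ones kept their calls under every setting that tested them. For Fbxl13 and Fbxw10 this again is a description, as their gel counts brought them past the count rule. Fbxl6 was lost without any library but gel library 3 and uninjured library 3 (adjusted p = 0.0506 to 0.186). Fbxo40 was lost without gel library 1, 2 or 4 or uninjured library 1 or 3 (0.0586 to 0.0797), and Fbxo44 without gel library 2 or uninjured library 3 or 4 (0.0538 to 0.0671). Fbxo7 was lost without gel library 2 or 4 or any uninjured library (0.0590 to 0.1002). Fbxw4 was lost without gel library 1, 2 or 4, PBS library 2 or any uninjured library (0.0519 to 0.122), and Fbxw5 without gel library 1, 2 or 4 or uninjured library 3 or 4 (0.0538 to 0.0664). The number of lower genes was 4, 2, 14 and 3 without gel libraries 1 to 4 and 4, 5, 2 and 3 without uninjured libraries 1 to 4. These are 28.6% of members without gel library 3, against 17.9% of all genes tested, and 4.08% to 10.2% in the other 7 fits, against 7.65% to 10.7%.

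**Figure D5:**
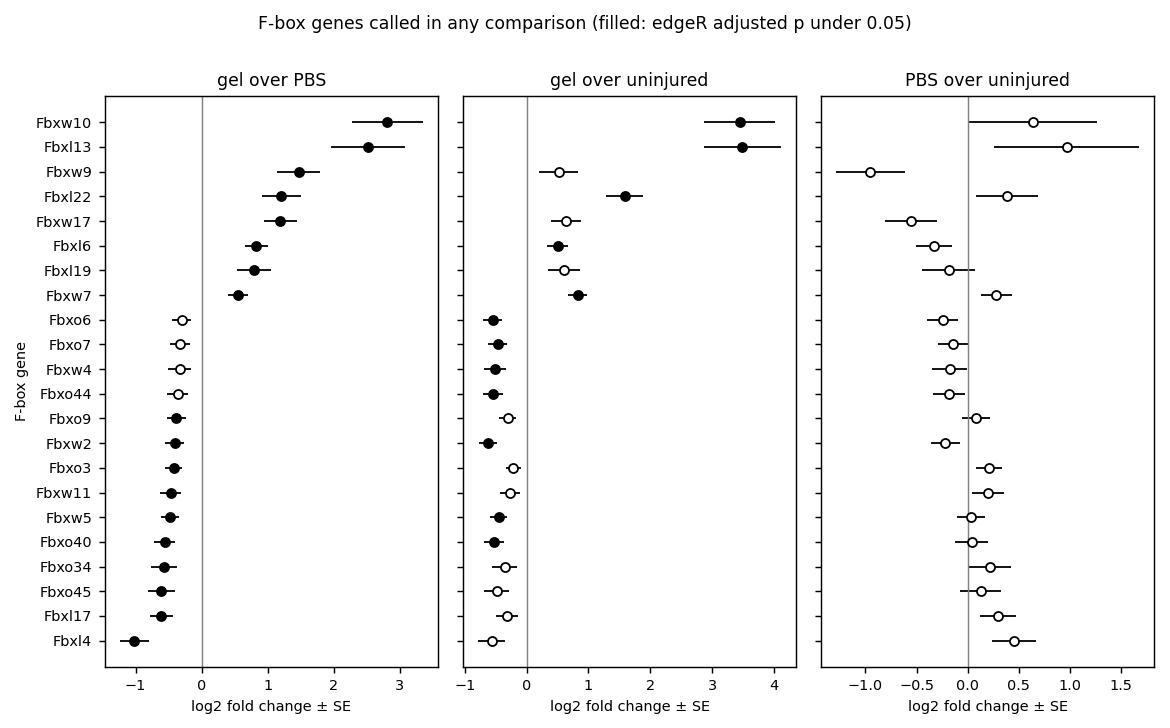
Log2 fold change with its SE of F-box genes called in any comparison, for gel over PBS (left), gel over uninjured (middle) and PBS over uninjured (right), where filled points passed the adjusted p of 0.05. Fbxw10 and Fbxl13 reach 2.81 and 2.52 against PBS and 3.45 and 3.49 against uninjured muscle, and no point is filled on the right.

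Muscle injected with PBS was also set against uninjured muscle. The uninjured libraries come from other animals, so effects of the injection, of the animal and of any injury cannot be told apart here. None of the 49 members was called by edgeR (0 higher and 0 lower), against 2.79% of all genes higher, 3.39% lower and 6.17% in either direction. DESeq2 also called 0, against 4.93% of all genes higher and 5.56% lower, and limma voom 0, against 2.24% and 3.26%. At an unadjusted p under 0.05 there were 4 members, 1 higher (Fbxl18) and 3 lower (Fbxw9, Fbxw17 and Fbxw8), or 8.16% of members against 22.4% of all genes tested. The smallest adjusted p was that of Fbxw9, at 0.103, with a mean of 0.725 ± 0.0698 CPM in PBS and 1.41 ± 0.347 CPM in uninjured muscle (log2 fold change -0.95 ± 0.33). Log2 fold changes ran from -0.95 to 0.97 (Fbxl13), and 43 of 49 lay within 0.5 of 0. The libraries did not overlap in 4 members (8.16%), against 20.6% of all genes tested: Fbxw9, lower in PBS muscle, and Fbxo3, Fbxl17 and Fbxl4, higher. In a fit of these 2 groups alone, Fbxl17 (0.30, adjusted p = 0.0245) and Fbxl4 (0.46, adjusted p = 0.0352) passed as higher. These are 4.35% of the 46 members tested in that fit, against 9.33% of all genes.

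The partners of F-box proteins were described from a list of 35 SCF core and assembly genes, of which 32 were tested. Between gel and PBS muscle 2 were higher (6.25%, against 16.6% of all genes tested) and 10 lower (31.2%, against 13.2%), with a median log2 fold change of -0.25, beside 0.04 over all genes. Nedd8, the ubiquitin-like protein whose attachment activates Cul1, was higher, averaging 114 CPM in gel and 65.2 CPM in PBS muscle (0.81 ± 0.14, adjusted p = 0.00191). Cul7, the cullin that pairs with Fbxw8, was also higher, averaging 20.1 CPM in gel and 9.40 CPM in PBS muscle (1.10 ± 0.22, adjusted p = 0.00301). Fbxw8 itself averaged 36.1 ± 5.44 CPM in gel and 34.6 ± 3.65 CPM in PBS and was not called (0.06 ± 0.13). The 4 falls with the smallest p were in Dcun1d2, a neddylation cofactor (-0.65, adjusted p = 0.00376), in Cops3 (-0.67, adjusted p = 0.00397) and Cops4 (-0.61, adjusted p = 0.00617) of the COP9 signalosome, which removes Nedd8, and in Arih1, a ligase that acts with neddylated cullins (-0.66, adjusted p = 0.0103). The core subunits were not called: Skp1 averaged 109 CPM in gel and 134 CPM in PBS muscle (-0.30, adjusted p = 0.149), Cul1 averaged 62.8 CPM in gel and 68.3 CPM in PBS muscle (-0.12, adjusted p = 0.400), and Rbx1 averaged 55.7 CPM in gel and 48.2 CPM in PBS muscle (0.21, adjusted p = 0.147). Against uninjured muscle 2 were higher in gel (6.25%, against 14.5%), again Nedd8 and Cul7, and 6 lower (18.8%, against 11.1%), led by Dcun1d2 (-0.64, adjusted p = 0.00381), Cops3 (-0.49, adjusted p = 0.0206), Cops4 (-0.44, adjusted p = 0.0353) and the ubiquitin-conjugating enzyme Ube2r2 (-0.48, adjusted p = 0.0407). Between PBS and uninjured muscle 1 was higher (3.12%, against 2.79% of all genes tested), the ubiquitin-conjugating enzyme Ube2d1 (0.64, adjusted p = 0.0357), and 0 were lower (0%, against 3.39%).

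Among 8 tested F-box genes with other symbols, 1 was higher in gel than in PBS muscle (12.5%, against 16.6% of all genes tested) and 0 were lower. The higher gene was Ccnf, or cyclin F (1.76 ± 0.47, adjusted p = 0.0130). Against uninjured muscle 4 were higher in gel (50%, against 14.5% of all genes tested): Skp2 (2.32, adjusted p = 0.00544), which targets Cdkn1b, Ccnf (1.92, adjusted p = 0.00949), Lmo7 (0.58, adjusted p = 0.00843) and Btrc (0.31, adjusted p = 0.0276). Lmo7 was also higher in PBS than in uninjured muscle (0.71, adjusted p = 0.00885), the only call of the list there (12.5%, against 2.79%). Of the 4 atrophy-linked ligases left out of the members, 3 fell in gel relative to PBS muscle (75%, against 13.2% of all genes tested): Fbxo32, or atrogin-1 (-1.15, adjusted p = 0.00325), Fbxo31 (-0.75, adjusted p = 0.00486) and Fbxo30 (-0.60, adjusted p = 0.0220). Against uninjured muscle, Fbxo32 (-1.50, adjusted p = 0.000590) and Fbxo31 (-0.91, adjusted p = 0.00161) were lower in gel (50%, against 11.1%). None of these 4 was called between PBS and uninjured muscle, against 6.17% of all genes tested. Of 20 known substrates, 1 (Nfkbia) was higher in gel than in PBS muscle, or 5% against 16.6% of all genes tested, and 2 (Ctnnb1 among them) were lower, or 10% against 13.2%. Nfkbia averaged 30.9 CPM in gel, 22.3 CPM in PBS and 33.8 CPM in uninjured muscle. It was lower in PBS than in uninjured muscle (-0.60, adjusted p = 0.00767) and was not called between gel and uninjured muscle (-0.13, adjusted p = 0.446). Against uninjured muscle 5 substrates were higher in gel (25%, against 14.5%): Ccnd1 (1.11, adjusted p = 0.0129), Irs1 (0.55, adjusted p = 0.0136), Rrm2 (1.93, adjusted p = 0.0141), Bcl6 (0.62, adjusted p = 0.0152) and the Fbxw7 substrate Ccne1 (1.95, adjusted p = 0.0296). Another 2 were lower (10%, against 11.1%), again with Ctnnb1. In PBS relative to uninjured muscle 2 were higher (10%, against 2.79%), Ccnd1 (1.25, adjusted p = 0.0217) and Bcl6 (0.65, adjusted p = 0.0353), and 3 were lower (15%, against 3.39%), Nfkbia, Myc (-0.98, adjusted p = 0.00947) and Mcl1 (-0.59, adjusted p = 0.00985). All of these are transcript levels, and protein was not measured.

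At the edge of the count rule, Fbxl13 had 10 counts or more in exactly 4 libraries, Fbxw10 in 6 and Fbxo27 in 7. Just outside, Fbxo16 had 10 or more in 2 libraries, with 0, 12, 6 and 14 counts in gel muscle, 0 in every PBS library and 0, 0, 0 and 2 in uninjured muscle. Of the 24 rows left out by count, 11 had no count in any library. Exon bases shared with another annotated gene concerned 17 members, most of all Fbxl12 (37.1% of its exon bases, with Ubl5), Fbxw8 (33.4%, with Gm9754), Fbxl15 (25.6%, with Cuedc2) and Fbxw4 (21.4%, with Gm17018), each on the opposite strand, and their values are uncertain to that extent.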

How the data were processed

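RNA was sequenced from 12 mouse tibialis anterior muscles. Each deposited file held whole-number read counts per gene symbol for 1 library, which the authors had not normalised. STAR, edgeR and the genome build mm39 are named in the submitters' processing notes, without versions. Counting program, strand setting and annotation: none is given in the sources used here. Library totals were 15626086 to 22182483 counts, and 0 columns belonged to other series. No pair of replicates agreed within sampling noise: their lowest chi-square per gene (20 reads or more in the pair) was 6.50.

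These counts went into edgeR 4.0.16 under R 4.3.3. After filterByExpr, which left 13499 genes, and TMM scaling, they were fitted by robust quasi-likelihood with 1 coefficient for each group over all 12 libraries, leaving 9 residual degrees of freedom. Benjamini-Hochberg adjustment ran over all tested genes. CPM are edgeR's, on scaled libraries, the SE of a fold change comes from its F statistic, and the fit was tested on simulated data. Levels per kb divide CPM by the length of the union of GENCODE M21 exons, matched by symbol for 49 of 49 members, and the reference is of another build than the files, so the genes' own coordinates are not given. Promoter sequences and their coordinates are RefSeq's on GRCm38.p6.

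Alternatives were DESeq2 1.42.0, limma 3.58.1 voom, median-of-ratios scaling, other filters, the 2 groups alone, a block by animal, and each library left out in turn. Halved counts were added after seeing that most small counts were even. Intervals from counts cover counting error only. Every member past the threshold is named, 20 genes were to be named whatever their values, and of each pathway list the genes past the threshold, up to 4 in each direction by smallest p, with Ccne1 beyond that, apart from genes that are counted but not reported here. Gel and PBS libraries of 1 number are taken as legs of 1 animal, because the deposited names share the animal number and the labels' protocol puts gel in the left and PBS in the right leg; their deviations from the group means correlated at 0.14, -0.06, 0.31 and 0.08. The members, the gene lists and the named genes were chosen with earlier results of these data known.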

Additional observations from a re-analysis of the deposited data

Results flagged for a closer look

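Levels of the 49 members were examined for a library far from the other 3 of its group, by Dixon's test, in 147 groups. Chance alone flags about 1 in 20 groups, and 9 values were flagged.

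Among gel libraries, 3 values were flagged, all in gel library 3 and all high: Fbxo36 at 9.95 CPM, against 5.87 to 6.04 CPM in the other gel libraries, Fbxo9 at 32.8 CPM, against 21.5 to 21.9 CPM, and Fbxw5 at 89.8 CPM, against 58.7 to 63.7 CPM. Among PBS libraries, PBS library 3 was flagged for Fbxo3, at 81.5 CPM against 70.0 to 71.3 CPM in the others, and for Fbxo33, at 1.49 CPM against 2.52 to 2.72 CPM. Among uninjured libraries, library 3 was flagged for Fbxo6, at 75.5 CPM against 64.7 to 65.3 CPM, and for Fbxw7, at 13.7 CPM against 9.95 to 10.5 CPM. Uninjured library 2 was flagged for Fbxo22, at 24.4 CPM against 31.5 to 32.2 CPM, and uninjured library 4 for Fbxl14, at 4.94 CPM against 7.92 to 8.52 CPM.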

How the results depend on the processing

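The counts of higher and lower genes stayed within 1.5 times their values under median-of-ratios scaling, both other filters, DESeq2, limma voom and halved counts, in all 3 comparisons. Exceptions came from the fits of fewer libraries. Lower genes between gel and PBS muscle, 11 in all, were 1 with these 2 groups alone (2.04% of members, against 7.90% of all genes), 7 with the animal number as a replicate block (14.3%, against 10.03%), and 2 to 14 with 1 library left out (4.08% to 28.6%, against 8.24% to 19.99%). Lower genes between gel and uninjured muscle, 7 in all, were 2 to 14 with 1 library left out (4.08% to 28.6%, against 7.65% to 17.9%). Higher genes between PBS and uninjured muscle, 0 in all, were 2 with the 2 groups alone (4.35%, against 9.33%). Higher genes of gel against PBS with 1 library left out were 6 to 9 (12.2% to 18.4%, against 9.86% to 22.7% of all genes). Those of gel against uninjured muscle were 4 to 7 (8.16% to 14.3%, against 9.11% to 20.4%). Halving the counts called 7 higher (14.9%, against 17.7% of all genes) and 11 lower genes (23.4%, against 14.0%) of gel against PBS. Against the fit of the same 2 groups without it, the block regained the call of Fbxl19 among the higher genes. No paired analysis was possible because the uninjured libraries come from other animals, for the comparisons with them.

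Directions turned only in genes not called. Fbxl20 between gel and uninjured muscle, at 0.00 in log2 terms, was -0.0080 with median-of-ratios scaling, -0.0003 with the member rule as filter, -0.0160 with no filter, -0.0084 with DESeq2, -0.0098 with voom, -0.0211 with the 2 groups alone and -0.0889 to 0.0688 over the fits that left out 1 library. Between PBS and uninjured muscle, voom turned Fbxl5 to -0.0002 and Fbxl2 to -0.992, and with 1 library left out Fbxl5 ran from -0.0721 to 0.0892, Fbxl2 from -0.3007 to 0.5998 and Fbxo40 from -0.0139 to 0.0704. Between gel and PBS muscle, Fbxl5 ran from -0.0499 (without PBS library 4) to 0.1423 and Fbxo25 from -0.0373 (without gel library 3) to 0.1762. The cause was not tested.

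With no filter on low counts, the calls of Fbxo34 (adjusted p = 0.0594) and Fbxo9 (0.0519) against PBS and of Fbxl6 (0.0603) and Fbxo7 (0.0520) against uninjured muscle were lost. Depth limits the rarest members: Fbxl13 and Fbxw10 had 10 counts or fewer in each PBS and uninjured library.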

Other observations

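Fbxw14, Fbxw28, Fbxw22 and Fbxw25, of a cluster of closely related mouse Fbxw genes, had 24, 17, 5 and 4 counts in gel library 2 and 0 in each of the other 11 libraries. Another 10 Fbxw rows had 0 counts in all 12 libraries. Gel library 2 also held 770 genes with counts in no other library, 318 of them with 4 counts or more, against 42 to 228 such genes in each other library, and had the highest number of genes detected, 17660. Reads of near-identical copies cannot be assigned with certainty.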
